A study of Mus musculus with 4 samples.

Results

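Haematopoietic niche factors are the signals by which bone marrow stroma holds, feeds and instructs blood-forming cells. Here 7 of them, Cxcl12, Kitl, Vcam1, Angpt1, Il7, Csf1 and Gas6, out of 27998 genes counted, were followed across 5 stromal cell types in 4 single-cell libraries of mouse bone marrow. The 7 genes were chosen by name, with earlier results of these data known, and each symbol matched 1 row of every matrix. Each barcode with at least 2000 UMIs (unique molecular identifiers, 1 per captured transcript), at least 500 genes and at most 10% mitochondrial UMIs was taken as a cell. Types were assigned from marker genes, in UMIs per 10000 UMIs of a cell. MSC (mesenchymal stromal cells) had at least 10 of Adipoq, Lepr and Esm1 summed, osteoblasts at least 100 of Bglap and Bglap2, chondrocytes at least 15 of Col9a1, Col9a2 and Col9a3, fibroblasts at least 8 of Dpt, Clec3b and Col14a1, and tendon cells at least 30 of Thbs4 and Myoc. None of the 7 genes takes part in these definitions.

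All mice were C57BL/6. The NHD13Tg library came from mice with the Nup98-HoxD13 transgene, a model of myelodysplastic syndrome (MDS, a clonal disorder of blood formation), and its wild-type library is WT_A1. The Abcg2-MDS/AML library came from a second MDS model named for Abcg2, and its wild-type library is Control. Sorting kept CD140a+ CD51+ cells of collagenase-treated femora and tibiae that lacked CD45, TER119 and CD31. The labels state neither age, sex and the number of mice behind a library, nor the promoter of the transgene or the making of the Abcg2 model. Each group is 1 library, so a difference between a model and its wild type compares 2 libraries and has no replicate check.

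The matrices held 36133716 to 46033790 UMIs each, and 4973, 5766, 5158 and 5586 barcodes were taken as cells in the libraries WT_A1, NHD13Tg, then Control and last Abcg2-MDS/AML, the order used throughout. Median depth was 4186 to 5452 UMIs per cell, and any 2 libraries shared 6 to 14 cell barcodes. Although all cells had passed a sort for MSC, the MSC definition took 694, 1902, 431 and 189 cells, which is 14.0%, 33.0%, 8.36% and 3.38% of cells. Fibroblasts numbered 2102, 1796, 367 and 668, tendon cells 1290, 1152, 651 and 1105, osteoblasts 109, 145, 69 and 8, and chondrocytes 4, 6, 1048 and 832. A cell could meet several definitions, as 2.90% to 16.5% of cells did, and 26.1% to 54.6% met none. Of 7 MSC markers outside the definition (Hp, Ebf1, Ebf3, Foxc1, Grem1, Pdgfrb and Lpl), 6, 6, 7 and 6 were at least 2-fold higher in MSC than in the other cells of the library.

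The MSC of Abcg2-MDS/AML stood apart before any niche gene was read. Only 30.7% of them held an Adipoq UMI, against 83.3% to 97.0% of MSC in the other libraries, and 28.6% held an Esm1 UMI, against 82.4% to 89.6%. Lepr was detected in 97.9% of them, so that most of these cells entered the definition through Lepr. In that library 128 of 189 MSC lay between 10 and 20 UMIs per 10000 of the 3 defining genes and 8 at 40 or more, where the other libraries had 223, 863 and 311 cells. The tests of the 7 genes against fibroblasts are therefore given with and without this library; the counts of listed genes, the mean levels and the correlations include it.

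The 7 genes fall into 4 roles. Cxcl12 encodes the chemokine that retains haematopoietic stem cells and B cell precursors through the receptor CXCR4, and Vcam1 encodes the adhesion molecule bound by the integrin VLA-4 on blood cells. Kitl encodes stem cell factor, the ligand of KIT, and Angpt1 the ligand of the receptor TIE2 (Tek). Il7 and Csf1 encode cytokines of the lymphoid and the monocyte lineage, and Gas6 a vitamin K-dependent ligand of the receptors AXL, MERTK and TYRO3. Leptin receptor-positive perivascular stromal cells, also described as CXCL12-abundant reticular cells, are known as a main marrow source of CXCL12 and stem cell factor.

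Promoter sequences of 4 of the 7 genes were found in RefSeq (build GRCm38.p6). All 4 are shown, and none was found for Vcam1, Angpt1 or Il7. Each is the 250 bases before the start site, 5′ to 3′ on the strand of the gene: Cxcl12 at chr6:117168285-117168534 (+), Kitl at chr10:100015571-100015820 (+), Gas6 at chr8:13494536-13494785 (-) and Csf1 at chr3:107760470-107760719 (-). Capitals mark matches, on either strand, to the GC box GGGCGG, the TATA box TATAAA, the EBF motif TCCCNNGGG and the NF-kB consensus.
Cxcl12: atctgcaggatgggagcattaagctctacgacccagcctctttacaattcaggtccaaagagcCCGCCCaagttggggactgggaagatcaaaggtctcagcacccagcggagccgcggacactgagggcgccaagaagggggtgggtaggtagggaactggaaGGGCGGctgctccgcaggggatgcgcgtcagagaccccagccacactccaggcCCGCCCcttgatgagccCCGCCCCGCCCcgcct
Kitl: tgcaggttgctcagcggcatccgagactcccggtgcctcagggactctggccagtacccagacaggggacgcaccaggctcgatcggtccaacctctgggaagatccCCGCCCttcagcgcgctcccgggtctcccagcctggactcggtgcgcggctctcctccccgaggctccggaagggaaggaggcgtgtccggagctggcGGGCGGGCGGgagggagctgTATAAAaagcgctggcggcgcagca
Gas6: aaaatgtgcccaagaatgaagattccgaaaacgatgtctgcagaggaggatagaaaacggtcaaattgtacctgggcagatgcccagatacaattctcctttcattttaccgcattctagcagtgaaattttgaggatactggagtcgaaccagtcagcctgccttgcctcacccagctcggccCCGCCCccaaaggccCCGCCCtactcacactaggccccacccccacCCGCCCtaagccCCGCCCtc
Csf1: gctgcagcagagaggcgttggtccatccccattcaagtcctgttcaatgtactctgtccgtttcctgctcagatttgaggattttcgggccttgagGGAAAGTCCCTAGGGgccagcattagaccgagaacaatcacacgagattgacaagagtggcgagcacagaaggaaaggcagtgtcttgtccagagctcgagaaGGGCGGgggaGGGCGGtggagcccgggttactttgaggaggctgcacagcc
GC boxes numbered 5 in Cxcl12, 3 in Kitl, 4 in Gas6 and 2 in Csf1, and 32.7% of 32851 promoters of that length held at least 1. Some of them overlap, such as those that begin 45 and 41 bases before the start of Kitl. Kitl held the only TATA box, 25 bases before its start (12.4% of promoters hold one). Csf1 held the only EBF match, 148 bases before its start (5.60% of promoters), which overlaps the only NF-kB match, 154 bases before its start (3.90%). No match to the C/EBP motif TTGCNNAA or the forkhead motif GTAAACA lay in these 4 windows, against 9.56% and 3.17% of promoters. Base composition ranged from 54.8% GC in Gas6 to 69.2% in Kitl. A match is a description of the letters and not a bound site.

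The first comparison asked in which stromal type each factor was transcribed. Levels are CPM, the UMIs of a gene per 1000000 UMIs summed over the cells of a type in a library. Cxcl12, the retention chemokine, stood in MSC at 17698, 16883, 16621 and 1627 CPM, so that 3 libraries lay close together and Abcg2-MDS/AML about an order of magnitude below. Its level in fibroblasts was 832, 1209, 577 and 1514 CPM, below MSC of the same library in all 4 libraries, though only just in Abcg2-MDS/AML. Tendon cells had 534, 756, 129 and 230 CPM, osteoblasts 202, 213 and 24.1 in the 3 libraries with at least 20 such cells, and chondrocytes 75.2 and 17.5 in the 2 with at least 20. The mean in MSC was 13207 ± 7734 CPM (SD, n = 4), against 1033 ± 412 in fibroblasts (SD, n = 4). In edgeR's quasi-likelihood test with the library as a block, Cxcl12 was higher in MSC by 3.26 on the log2 scale against fibroblasts (adjusted p = 0.0032), and by 4.34 without Abcg2-MDS/AML (adjusted p = 2.65e-05). Against tendon cells, osteoblasts and chondrocytes it was higher by 4.93, 6.28 and 7.06, with adjusted p of at most 0.000249.

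Kitl, stem cell factor, was the member most restricted to MSC relative to fibroblasts and tendon cells. MSC held 1401, 1574, 2008 and 681 CPM, and no fibroblast, tendon or osteoblast sum of at least 20 cells exceeded 44.8 CPM. The difference was 5.14 against fibroblasts (edgeR adjusted p = 2.91e-07), 5.45 without Abcg2-MDS/AML, and 5.60 against tendon cells (edgeR adjusted p = 1.5e-07). Vcam1, the adhesion molecule, stood in MSC at 1521, 806, 2072 and 1312 CPM and in fibroblasts at 92.6, 91.3, 63.9 and 101 CPM. The 4 MSC values lay above every value of another type with at least 20 cells, and the difference from fibroblasts was 3.92 (edgeR adjusted p = 2.02e-06) and 4.05 without Abcg2-MDS/AML.

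Angpt1 and Il7 were the members with the fewest UMIs. Angpt1, the TIE2 ligand, had 137, 122, 183 and 25.7 CPM in MSC and 20.1, 22.2, 27.6 and 23.0 in fibroblasts. In Abcg2-MDS/AML its MSC value rests on 17 UMIs, and the counting interval of that value holds the fibroblast value of the same library. Over all libraries Angpt1 was higher in MSC than in fibroblasts by 2.11 (edgeR adjusted p = 0.000602), and by 2.56 without Abcg2-MDS/AML. Il7, the lymphoid cytokine, had 88.1, 61.7, 153 and 10.6 CPM in MSC, the last from 7 UMIs, and 4.51, 7.25, 3.69 and 1.36 CPM in fibroblasts. The Il7 difference was 3.95 (edgeR adjusted p = 6.55e-06) and 3.93 without Abcg2-MDS/AML, and outside MSC no sum of at least 20 cells exceeded 9.46 CPM.

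Csf1 and Gas6 were the least restricted. Csf1, the macrophage growth factor, stood at 619, 420, 409 and 159 CPM in MSC, at 168, 177, 119 and 130 CPM in fibroblasts and at 143, 150, 49.6 and 49.1 CPM in tendon cells. It was higher in MSC than in fibroblasts by 1.18 (edgeR adjusted p = 0.00198) and in each of the 4 libraries, and by 1.54 without Abcg2-MDS/AML. Gas6, the TAM receptor ligand, had 1863, 1821, 1986 and 418 CPM in MSC, 556, 632, 415 and 1642 CPM in fibroblasts and 556, 555, 151 and 876 CPM in tendon cells. Thus MSC lay above fibroblasts in 3 libraries and below them in Abcg2-MDS/AML. The difference of 1.05 did not pass the test (edgeR adjusted p = 0.139), whereas without that library it was 1.77 (edgeR adjusted p = 0.000431). Against tendon cells Gas6 was higher in MSC by 1.60 (edgeR adjusted p = 0.0286). That call ended without WT_A1 (adjusted p = 0.136), without NHD13Tg (0.128), without Control (0.205) and without the library block (0.107), and it held without Abcg2-MDS/AML (2.16, adjusted p = 0.00012).

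**Figure D1:**
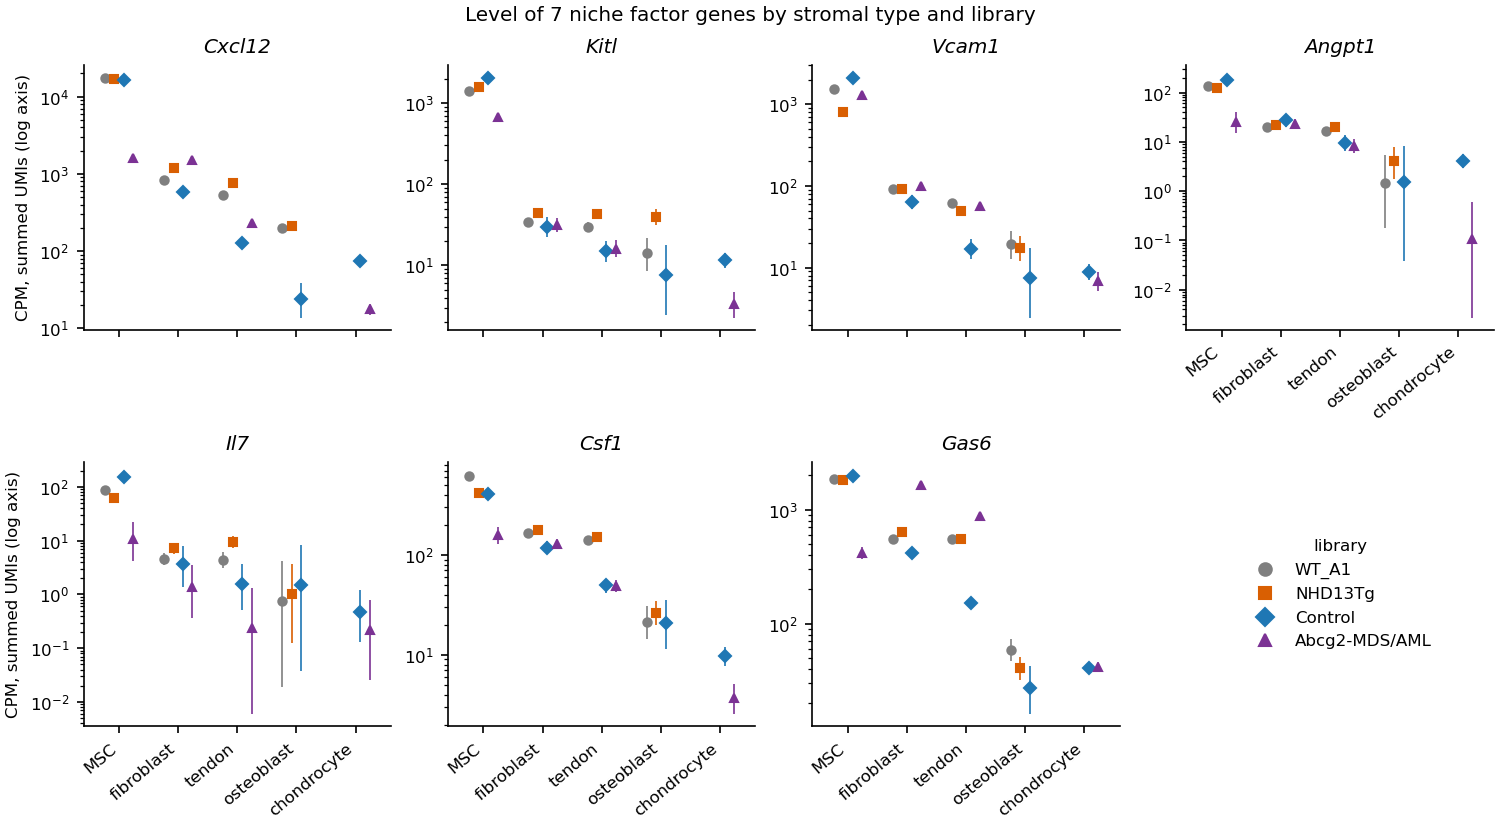
CPM (log axis) of each gene in each stromal type, 1 point per library with at least 20 cells of the type and its 95% Poisson interval. MSC are highest in every panel for WT_A1, NHD13Tg and Control, and the Abcg2-MDS/AML point of Gas6 is lower in MSC (418) than in fibroblasts (1642).

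In all, 27 of the 28 tests of a member between MSC and another type called it higher in MSC, and 28 of 28 did so without Abcg2-MDS/AML. Such calls are common among all 12374 genes tested: 22.6% were higher in MSC than in osteoblasts, 22% than in chondrocytes, 21.7% than in fibroblasts and 21% than in tendon cells, while 20.5%, 22.4%, 20.1% and 20.5% were lower. Without Abcg2-MDS/AML 23.3% of genes were higher in MSC than in fibroblasts. The sizes of the members' differences had medians of 5.76, 6.82, 3.26 and 4.03 against osteoblasts, chondrocytes, fibroblasts and tendon cells, where the median of all genes lay between -0.01 and 0.07. Scaling by library totals without TMM raised the median of all genes to 0.58, 0.52, 0.12 and 0.17 and the share of calls that were higher from 52.4% to 80.2%, 49.6% to 78.0%, 51.9% to 63.2% and 50.6% to 66.7%. Relative to that shift the smallest difference of a member was 3.73, 4.71, 1.03 and 1.59, and all 7 stayed above the median of all genes in each.

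**Figure D2:**
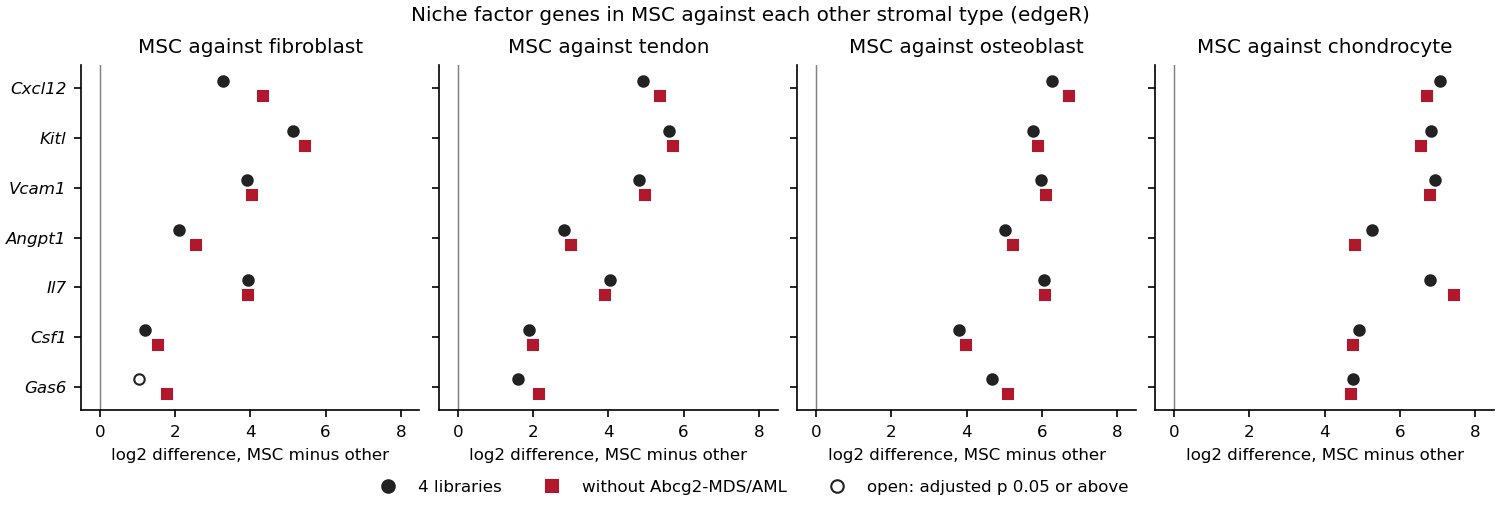
edgeR log2 differences, MSC minus the other type, for the 7 genes with all 4 libraries (circles) and without Abcg2-MDS/AML (squares); open symbols have an adjusted p of 0.05 or above. Every point is above 0, and the one open symbol is Gas6 against fibroblasts with 4 libraries.

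Ranked by mean level, all 7 members were highest in MSC, then in fibroblasts, then in tendon cells. The means of osteoblasts and chondrocytes come from different libraries and give no order: in Control, which alone had at least 20 cells of both, chondrocytes were above osteoblasts for every member but Il7 and Csf1. Below MSC, several neighbouring types could not be told apart. Between fibroblasts and tendon cells no member passed the edgeR test, with adjusted p of 0.298 or more, but only 0.105% of all genes were higher in fibroblasts there and the 2 definitions share cells. Between tendon cells and osteoblasts 4 of 7 members were higher in tendon cells (Csf1, Vcam1, Gas6 and Angpt1), where 19.2% of all genes were. Between fibroblasts and osteoblasts 5 of 7 were higher in fibroblasts, Cxcl12 added, where 19.6% of all genes were. No member passed the test between osteoblasts and chondrocytes (edgeR adjusted p of 0.0622 or more), where 14.6% of all genes were higher in osteoblasts.

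RNA outside cells bears on the low values. In barcodes of 1 to 100 UMIs, read here as free RNA, Cxcl12 stood at 2653, 4497, 722 and 254 CPM, above its level in fibroblasts in all libraries but Abcg2-MDS/AML. After free RNA was subtracted at a share estimated from haemoglobin or osteocalcin UMIs, MSC remained above the other types for every member and library with a value, except Gas6 in Abcg2-MDS/AML, which was below before as well. Each member's level in MSC was above its free RNA level in every library (Cxcl12 of WT_A1: 17698 and 2653 CPM). Subtraction could thus hardly change the order of types and is no check of it. For MSC of NHD13Tg the haemoglobin estimate was 1.32, more than the whole of the RNA, and so gave no usable value. For MSC of Abcg2-MDS/AML the osteocalcin estimate was 0.556 and the haemoglobin estimate 0.108. In MSC of the other libraries the osteocalcin estimate was 0.0075 to 0.0503. In fibroblasts, tendon cells and chondrocytes of Abcg2-MDS/AML it was 0.0073, 0.0392 and 0.0855. Whether the osteocalcin UMIs of the MSC of that library came from free RNA or from the cells themselves was not tested. As a class that should lack most members, 469 barcodes of blood cells in Control (median 24248 UMIs) held a Cxcl12 UMI in 1.49% of cases after thinning to 2000 UMIs, a Kitl UMI in 0.426% and a Gas6 UMI in 1.07%. In Control fibroblasts (median 3773 UMIs) the same shares were 28.9%, 5.18% and 45.2%. Free RNA can be a larger part of these shallower cells, so the shares of the deeper blood barcodes set no limit to it there. The other libraries held 15, 15 and 2 such barcodes. Cxcl12 was positive in 3 of those in WT_A1 and 5 of those in NHD13Tg, and Gas6 in 13.3% of each, with wide intervals (for Cxcl12 shares of 4.33% to 48.1% and 11.8% to 61.6%). Kitl was positive in 6.67% of those in NHD13Tg, no lower than in its fibroblasts (5.07%), so low shares outside MSC are not read as expression in those libraries. Endothelial cells are another known source of these factors. The 6 endothelial markers summed to 33.1, 15.4, 20.8 and 13.6 CPM in MSC, against 3.82, 4.22, 10.9 and 7.07 CPM in free RNA, and 2, 5, 2 and 1 of them were at least 2-fold higher in MSC than in other cells. Pecam1 made up most of each sum, at 28.6, 12.6, 17.9 and 12.1 CPM and in 3.70% to 8.93% of MSC, while Cdh5 was at 0 in MSC of all 4 libraries. The part of such cells in the levels of MSC was not tested.

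Counted by cell, the same contrast appeared in the share of cells with at least 1 UMI, with every cell thinned to 2000 UMIs. Cxcl12 was found in 95.2%, 97.6%, 98.4% and 58.7% of MSC, and in 96.4%, 98.3%, 98.4% and 64.0% before thinning. In the first 3 libraries it was thus close to a uniform trait of MSC, while in Abcg2-MDS/AML its share matched that of fibroblasts (58.7%). Kitl was found in 81.3%, 86.8%, 93.7% and 55.6% of MSC and in 4.52% to 5.69% of fibroblasts, and Vcam1 in 82.4%, 69.9%, 92.8% and 58.7% of MSC and 7.08% to 9.90% of fibroblasts. Gas6 was found in 88.5%, 87.5%, 92.6% and 43.9% of MSC and in 50.7%, 50.6%, 45.2% and 66.0% of fibroblasts. Il7 reached 15.4%, 11.5%, 25.5% and 2.12% of MSC at that depth. At the same thinned depth, at least 4 of the 7 members were detected together in 81.8%, 77.1%, 91.6% and 32.8% of MSC, against 2.18% to 3.44% of fibroblasts.

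Within MSC the members varied from cell to cell by different amounts. In WT_A1 the middle 50% of MSC held 136 to 231 Cxcl12 UMIs per 10000, in NHD13Tg 130 to 225 and in Control 128 to 218. Kitl spanned 5.65 to 19.4, 8.36 to 22.3 and 11.3 to 27.4, a wider relative range at lower counts. In Abcg2-MDS/AML the middle 50% of MSC held 0 to 24.4 Cxcl12 and 0 to 11.7 Kitl UMIs per 10000. No single MSC gave more than 4.76% of the UMIs of Cxcl12, Kitl, Vcam1 or Csf1 in any library, or more than 6.52% of those of Gas6. In Abcg2-MDS/AML the largest share from 1 cell was 11.8% for Angpt1 and 14.3% for Il7. These genes had only 17 and 7 UMIs there, so such shares do not show that 1 cell stood out.

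The second comparison set each model library beside its wild type in MSC. A member was called where it was at least 1.5-fold apart, the 95% counting interval left out a ratio of 1 and 1 library had at least 20 CPM. This is a rule of size, not a test. In the NHD13 pair, Vcam1 was the only member called. Its level was 806 CPM in NHD13Tg, against 1521 in WT_A1, a log2 ratio of -0.92 (-0.97 to -0.86), and its share of positive cells was 12.5 percentage points lower. Csf1 (-0.56) and Il7 (-0.51) were lower by less than 1.5-fold with intervals that left out 0. Cxcl12 at -0.068, Gas6 at -0.03, Angpt1 at -0.16 and Kitl at 0.17 lay near 0. So 1 of 7 members was lower and 0 higher, where 7.2% of 6169 genes were lower and 4.04% higher.

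All 7 members were lower in the MSC of Abcg2-MDS/AML than in those of Control, where 20.8% of 6488 genes were lower and 12.8% higher. Il7 was lower by 3.76 on the log2 scale (interval -5.18 to -2.79), from 265 UMIs in Control and 7 in Abcg2-MDS/AML. Cxcl12 was 10.2-fold lower (9.61 to 10.9), Angpt1 7.11-fold (4.37 to 12.4) and Gas6 4.75-fold (4.20 to 5.39). Kitl was 2.95-fold lower, Csf1 2.57-fold and Vcam1 1.58-fold. Markers of other types moved with this pair. From Control to Abcg2-MDS/AML the summed level in MSC went from 105 to 439 CPM for 8 fibroblast markers, from 1056 to 2835 for 8 tendon markers, from 631 to 4.54 for 9 granulocytic markers and from 159 to 0 for 5 leukocyte markers, and that of the 10 MSC markers from 16913 to 7182. Of the 189 MSC of Abcg2-MDS/AML, 16 also met the fibroblast and 23 the tendon definition. The part of these in the ratios was not tested. The MSC of these 2 libraries also differed in the genes of the definition, so the ratio was read again among cells of like score. At 10 to 20 UMIs per 10000 of Adipoq, Lepr and Esm1 (128 and 39 cells), the log2 ratio of Cxcl12 was -2.34, that of Gas6 -1.10 and that of Kitl -0.46. Vcam1 reversed there to 0.12 (-0.14 to 0.38), and it stood at 0.05 between 20 and 40 and at 0.49 (0.13 to 0.81) at 40 or more, where 8 cells were compared with 311. Among MSC with an Adipoq UMI, a choice made after the values were seen, Cxcl12 stood at -2.96, Kitl at -0.94 and Vcam1 at 0.07. With the type thresholds doubled Vcam1 stood at -0.12. Free RNA subtracted at the share given by haemoglobin left it at -0.56. At the larger share given by osteocalcin, an estimate added after the values were seen, it reversed to 0.36. That share was 0.556, against 0.0073 in fibroblasts of the same library, and whether it measures free RNA was not tested. At least 1000 or 4000 UMIs, or doublets removed, gave -0.60, -0.65 and -0.75 for Vcam1. In the NHD13 pair Vcam1 stood at -1.03, -0.93 and -1.02 in the 3 ranges.

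**Figure D3:**
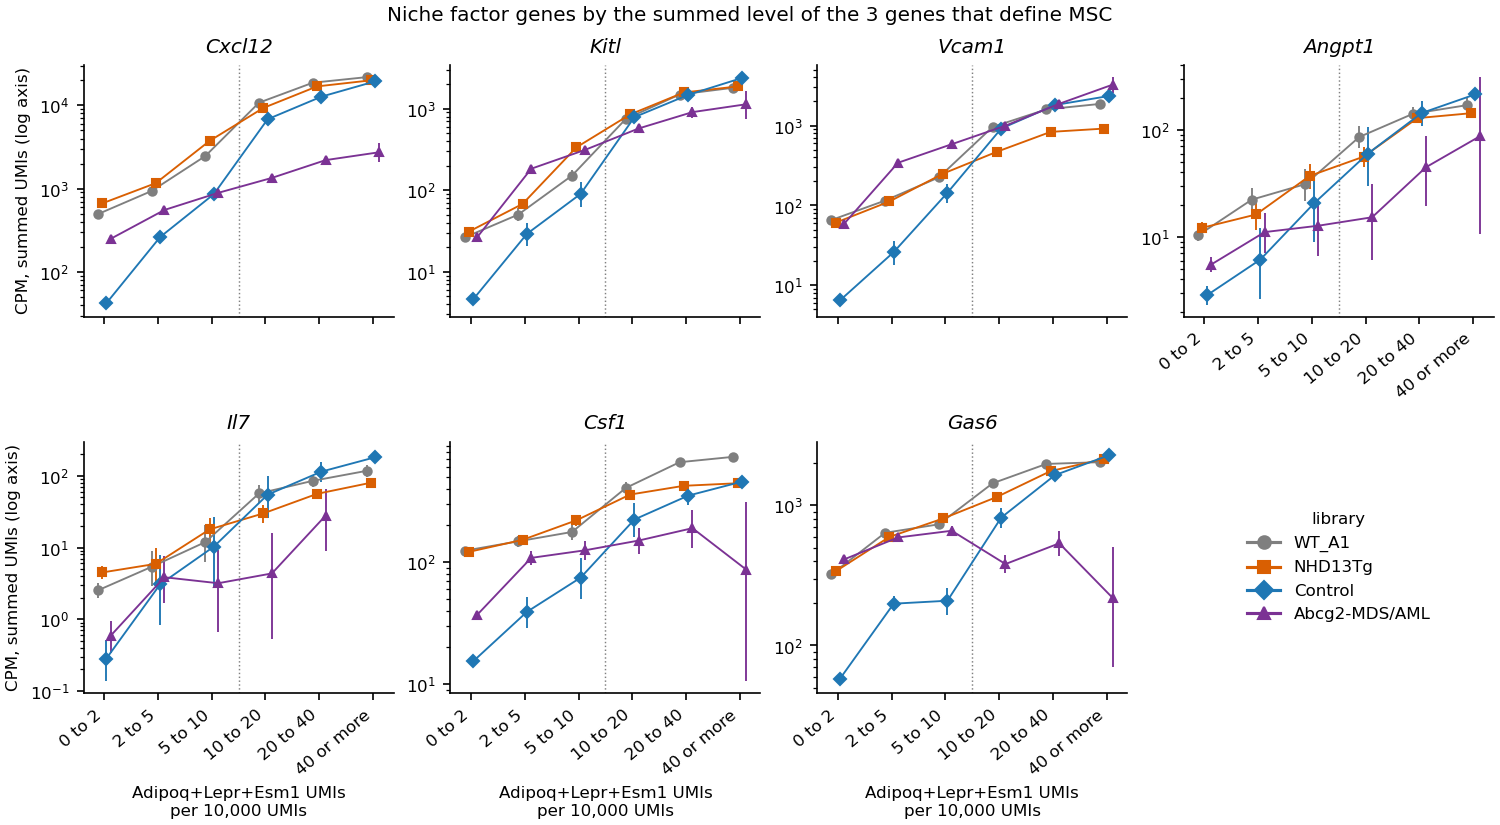
CPM (log axis) of each gene in cells grouped by the summed Adipoq, Lepr and Esm1 UMIs per 10000 (x axis), 1 line per library with 95% Poisson intervals; cells right of the dotted line meet the MSC definition and points at 0 are left out. Cxcl12 climbs to 19413 to 21814 CPM at 40 or more in 3 libraries and to 2739 in Abcg2-MDS/AML, while at 10 or more Vcam1 of Abcg2-MDS/AML lies above Control and that of NHD13Tg is lowest; below 10 Control is lowest.

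Both pairs were joined in 1 edgeR test of MSC, with the pair as a block, which has 1 residual degree of freedom. It called 0 of 10444 genes (0%), with 440 at an unadjusted p under 0.05, while DESeq2 called 5 higher and 11 lower and gave no adjusted p for 5265. No member was called: the edgeR log2 differences ran from -1.65 for Il7 to -0.60 for Kitl, each with an adjusted p of 0.997. In simulated data this test recovered 3% of genes changed 2-fold and 73% of those changed 4-fold. The spread in those data was preset, not taken from these libraries, and both pairs carried the same change. These shares therefore do not give the reach of the test here, where the pairs differed.

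Outside MSC the members of the Abcg2 pair were placed differently. In fibroblasts Gas6 stood at 1642 CPM in Abcg2-MDS/AML and 415 in Control (3.95-fold, 3.65 to 4.29), Cxcl12 at 1514 and 577 (2.62-fold) and Vcam1 at 101 and 63.9 (1.57-fold). These 3 of 7 members were called higher, where 12.3% of 6008 genes were. Tendon cells showed the same 3: Gas6 at 876 and 151 CPM (5.82-fold, 5.29 to 6.41), Vcam1 at 56.8 and 17.0 (3.33-fold) and Cxcl12 at 230 and 129 (1.79-fold), where 17.3% of 5611 genes were higher. Markers moved in both types as well. From Control to Abcg2-MDS/AML the 10 MSC markers summed from 801 to 1485 CPM in fibroblasts and from 453 to 824 in tendon cells. The 8 tendon markers went from 8114 to 3421 CPM in fibroblasts. The part of such shifts in the ratios was not tested. Chondrocytes had 17.5 and 75.2 CPM of Cxcl12, the 1 member called lower there, where 32% of 5021 genes were, and 1 cell gave 50.6% of the Cxcl12 UMIs in Abcg2-MDS/AML chondrocytes. In the NHD13 pair the 1 call outside MSC was Kitl in osteoblasts, at 39.3 CPM in NHD13Tg against 14.1 CPM in WT_A1 (2.79-fold, 1.67 to 4.88, from 77 and 19 UMIs), where 4.6% of 4757 genes were higher. The free RNA level of Kitl was also higher in NHD13Tg (355 CPM) than in WT_A1 (168 CPM), and its part in that ratio was not tested.

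**Figure D4:**
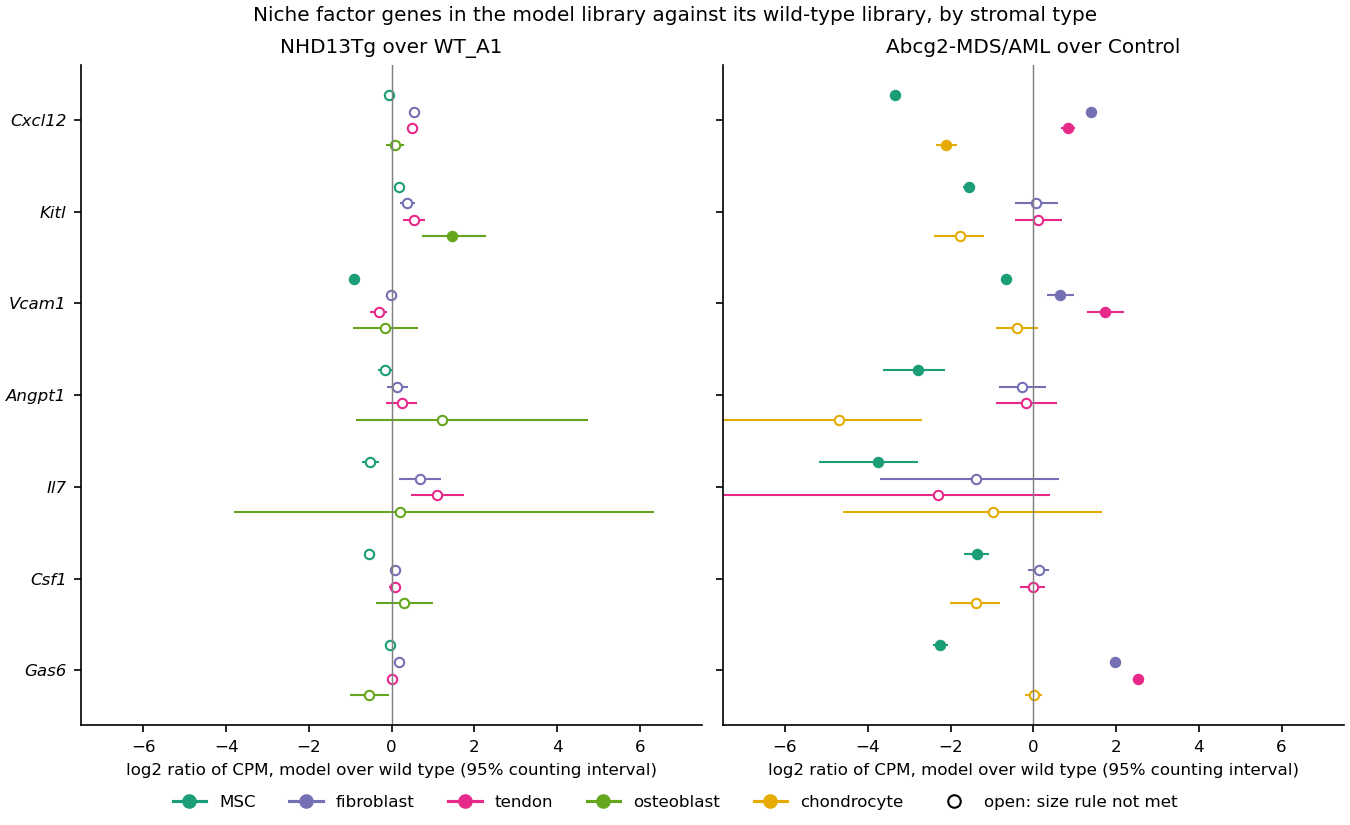
log2 ratio of CPM, model library over wild-type library, with 95% counting intervals (cut at the edge of the axis), by gene and stromal type; filled points meet the size rule. In the Abcg2 pair all MSC points lie left of 0, while Gas6, Cxcl12 and Vcam1 of fibroblasts and tendon cells lie right of it.

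The share of a factor's UMIs that came from MSC depends on its level, on cell number and on where the MSC threshold lies. MSC held 76.2%, 87.5%, 93.0% and 10.9% of the Cxcl12 UMIs of all cells in the 4 libraries, while fibroblasts held 14.8%, 7.37%, 3.04% and 45.4%. For Kitl the MSC share was 82.3%, 91.8%, 93.7% and 24.3%, and for Il7 75.5%, 80.9%, 93.6% and 20.6%. In Abcg2-MDS/AML, cells that met none of the 5 definitions held 66.0% of the Kitl and 61.5% of the Vcam1 UMIs, against 3.56% to 10.2% of Kitl and 4.56% to 13.1% of Vcam1 in the other libraries. Gas6 was spread more widely: fibroblasts held more of its UMIs than MSC in WT_A1 (44.1% and 35.8%) and in Abcg2-MDS/AML (36.5% and 2.08%). Cells of a library are those that were sorted and captured, so these shares do not give the marrow's own proportions.

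**Figure D5:**
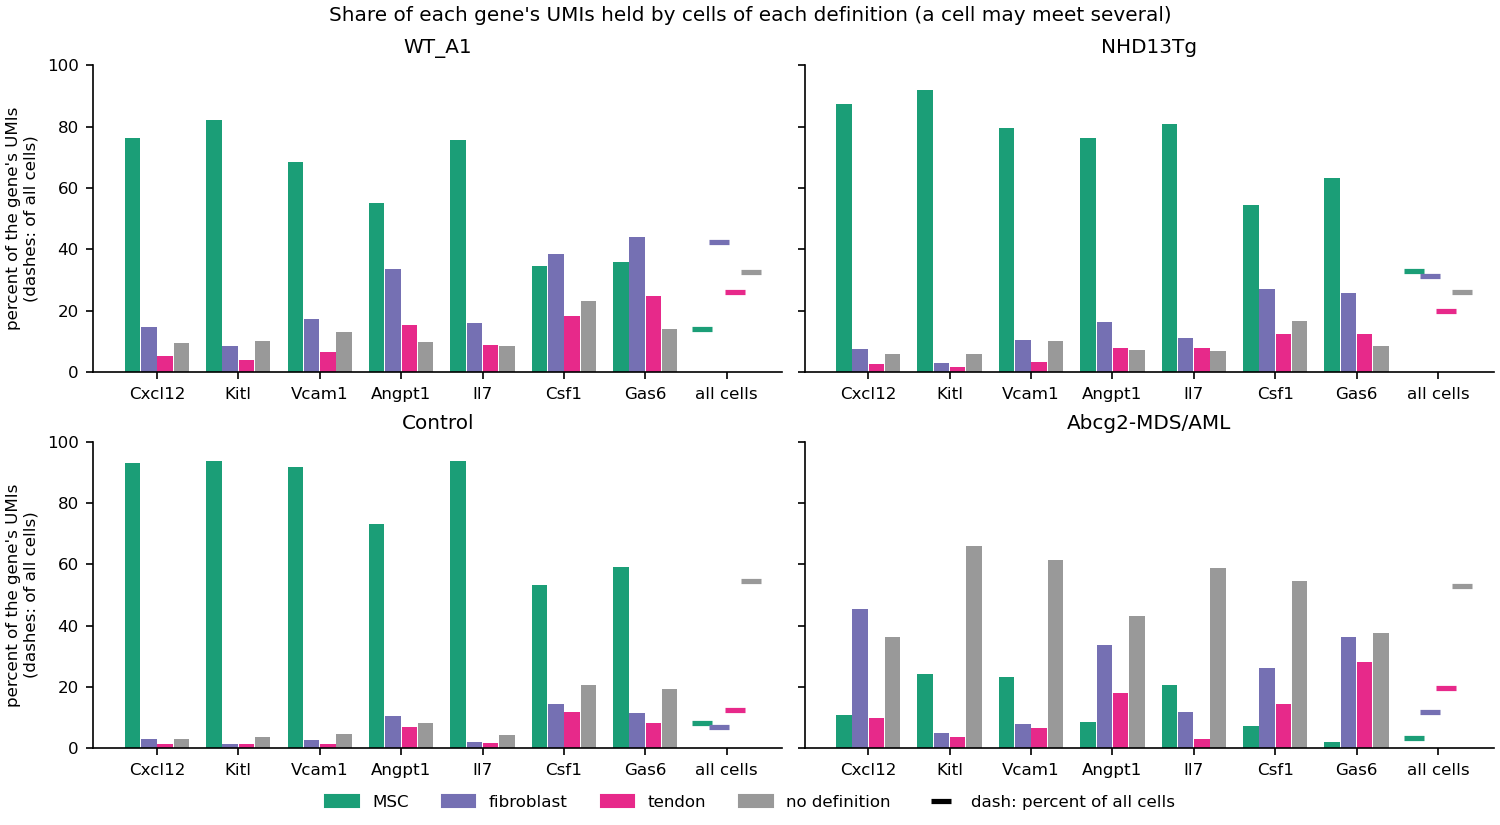
Percent of each gene's UMIs (bars) held by MSC, fibroblasts, tendon cells and cells of no definition in each library, beside the percent of all cells in each class (dashes). MSC hold 73.1% to 93.7% of the Cxcl12, Kitl, Vcam1, Angpt1 and Il7 UMIs of Control from 8.36% of its cells, and no more than 24.3% of any of the 7 in Abcg2-MDS/AML.

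The receptors of these factors are mostly genes of blood and endothelial cells, and 8 of 13 passed the filter on low counts. Against fibroblasts 4 of the 8 were higher in MSC and 3 lower, where 21.7% and 20.1% of all genes were. Against tendon cells 3 were higher and 3 lower, where 21% and 20.5% of all genes were. The 4 with the highest mean level were Itgb1, Ackr3, Axl and Mertk. Ackr3, the scavenging receptor of CXCL12, was lower in MSC than in fibroblasts, where its ligand was higher. It stood at 25.9, 28.8, 9.26 and 33.3 CPM in MSC and 284, 361, 181 and 88.4 CPM in fibroblasts (log2 difference -3.50, edgeR adjusted p = 3.41e-05). Other types did not show this reversal: like Cxcl12, its mean was higher in fibroblasts (229 CPM) than in tendon cells (150 CPM). Between MSC and osteoblasts Ackr3 did not differ detectably (-0.76, edgeR adjusted p = 0.265). Axl, a receptor of GAS6, was lower in MSC than in fibroblasts (log2 difference -2.04, edgeR adjusted p = 4.1e-05), and Mertk, another, was higher by 2.25 (edgeR adjusted p = 0.000369). Itgb1, the beta chain of VLA-4 and of many other integrins, was higher in MSC by 0.48 (edgeR adjusted p = 0.00669).

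Of 10 genes that process or bind the factors, all were tested, and 1 was higher and 5 lower in MSC than in fibroblasts (all genes 21.7% and 20.1%). Mmp2, a protease that can cleave CXCL12, stood at 27.2 to 129 CPM in MSC and 495 to 994 CPM in fibroblasts (log2 difference -3.34, edgeR adjusted p = 1.06e-07). Timp3, an inhibitor of metalloproteases, was lower in MSC (-0.97, edgeR adjusted p = 0.0366). In Abcg2-MDS/AML alone it was higher in MSC (795 CPM) than in fibroblasts (583 CPM). Sdc2, a heparan sulphate proteoglycan, differed by -0.89 (edgeR adjusted p = 0.00129), and Vkorc1, an enzyme of the vitamin K cycle, by -0.42 (edgeR adjusted p = 0.0401). Dpp4, which also truncates CXCL12, was the fifth gene lower in MSC, and Mmp9 was the 1 that was higher; both are named after their calls were seen, and Dpp4 is a marker of the fibroblast check.

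A further list of 36 niche factors, also chosen with earlier results of these data known, had 33 genes tested. In MSC 15 were higher and 9 lower than in fibroblasts, 18 and 4 than in osteoblasts, 21 and 5 than in chondrocytes, and 17 and 10 than in tendon cells, with medians of 0.48, 2.37, 1.86 and 0.79. Of all genes 20.1% to 22.6% were called in each direction of these comparisons, and their medians were 0.00, 0.07, 0.01 and -0.01. Spp1 (osteopontin) had 4268, 2425, 1388 and 3901 CPM in MSC and 144 to 701 CPM in fibroblasts (log2 difference 3.30, edgeR adjusted p = 0.000444), but did not differ detectably from osteoblasts (-0.89, edgeR adjusted p = 0.246). The chemokine Cxcl14 was higher in MSC than in each other type, by 1.90 against fibroblasts (edgeR adjusted p = 0.00143). In Abcg2-MDS/AML, however, it stood at 731 CPM in MSC and 748 CPM in fibroblasts. Fn1 (fibronectin) was lower in MSC than in fibroblasts (-3.13, edgeR adjusted p = 3.18e-06), and Igf1 did not pass that test (-0.77, edgeR adjusted p = 0.136).

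Between the libraries of a pair, 24 genes of that list could be compared in the MSC of the NHD13 pair, of which 5 were higher and 10 lower, with a median log2 ratio of -0.30 against -0.05 for all genes. By the same rule 4.04% of all genes were higher and 7.2% lower in that pair. The largest were Bmp4 (0.91), Vegfa (0.84) and Ang (0.81) upwards, and Ccl19 (-1.69), Mdk (-1.13) and Igf1 (-1.04) downwards. In the Abcg2 pair 4 of 23 were higher and 14 lower, with a median of -1.24 against -0.11 for all genes. Of all genes 12.8% were higher and 20.8% lower in this pair. Il15 (-3.57), Bmp4 (-3.36) and Vegfc (-2.44) were lowest there, and Ccl19 (2.29), Spp1 (1.49) and Ang (1.49) highest, so that Bmp4 and Ccl19 stood on opposite sides in the 2 pairs. The symbol Ccl19 stands on more than 1 row of the matrices, and its first row was used. Of 8 processing genes compared in the Abcg2 pair, 3 were higher in Abcg2-MDS/AML: Mmp9 (4.58, at 159 and 6.37 CPM), Timp3 (2.33) and Mmp2 (2.24). The 3 lower ones were Vkorc1 (-0.97), Adam17 (-0.69) and Adam10 (-0.68). Of 7 compared in the NHD13 pair, Vkorc1 was higher (0.77) and Timp3 lower (-0.65). Of 4 receptors compared in each pair, Ackr3 (1.83), Axl (1.61) and Kit (1.26) were higher in Abcg2-MDS/AML, from 22, 35 and 22 UMIs there. Mertk was the 1 called in the NHD13 pair, lower in NHD13Tg (-0.61).

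Genes whose levels ran most like a member's over the 20 sums of type and library were found by Pearson's r of log2(CPM + 10) among 5217 genes of at least 50 CPM in 1 sum. The sums share libraries and some cells, so r is a description. They include, at equal weight, the sums of 4, 6 and 8 cells that stayed out of the tests. In the sum of 4 cells, WT_A1 chondrocytes, 1 cell gave 98.1% of the Cxcl12 UMIs. Cxcl12 ran most like Igfbp4 (0.981), Ptx3 (0.966) and Slfn5 (0.947), and Kitl most like Kng2 (0.973), Kng1 (0.958) and H2-Q10 (0.957). Vcam1 was closest to Csmd1 (0.962), Ebf3 (0.957) and Il34 (0.954), and Il7 to Aldh1a2 (0.978), P2ry14 (0.976) and Pparg (0.965). Angpt1 ran with Ahcyl1 (0.963), Gpsm3 (0.959) and Fam69a (0.957), Csf1 with Igfbp4 (0.964), Lama4 (0.958) and Itga9 (0.955), and Gas6 with Ism1 (0.955), Mndal (0.947) and Rarres2 (0.946). Between members r was highest for Kitl and Vcam1 (0.944) and for Cxcl12 and Csf1 (0.938), and lowest for Gas6 and Il7 (0.645) and Gas6 and Kitl (0.686).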

How the data were processed

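Single-cell libraries of sorted marrow stroma were read from the deposited matrices, whose values are whole UMI counts and whose barcodes are not restricted to cells; the submitters' processing notes name Cell Ranger 3.1.0 and Seurat 3.2.3. The genome build is not given in the sources used here. Counts were summed per type and library, and the 17 sums of at least 20 cells were tested with edgeR 4.0.16 (quasi-likelihood, TMM, filterByExpr, library as a block, Benjamini-Hochberg adjustment over 12374 genes, threshold 0.05). DESeq2 1.42.0 was an alternative. Whether libraries pool several mice is not stated, so p-values measure the spread between these libraries. Sums of 4, 6 and 8 cells (chondrocytes of WT_A1 and NHD13Tg, osteoblasts of Abcg2-MDS/AML) stayed out of tests, and cells meeting 2 definitions entered both sums.

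Within a pair, log2 ratios of CPM (0.5 added to each count) have conditional exact intervals, levels Poisson and shares Clopper-Pearson intervals, at the 95% level, which cover counting error only. Scrublet (scanpy 1.11.5) marked 0 or 1 barcode per library, so doublets were kept, and an alternative removed 198 to 266 per library at 0.8% per 1000 cells. Data were also simulated from the mean levels of these sums, with a preset spread rather than that of the libraries. On them the tests between types recovered 7% to 20% of genes changed 2-fold and 77% to 97% of those changed 4-fold. Other genes named are the 4 of each list with the highest mean CPM, up to 3 per direction with the largest called ratio in each pair, and the 3 most like each member. The members and lists were chosen with earlier results of these data known. Alternatives covered definitions, depth, doublets, free RNA, scaling, filters, score ranges and each library left out.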

Additional observations from a re-analysis of the deposited data

Results flagged for a closer look

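Several members stood on opposite sides of their wild type in MSC and in another type, or in the 2 pairs, with counting intervals that left out 0 on both sides. Each value is a log2 ratio of 2 libraries, and the differences between them were not tested.

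In the Abcg2 pair, Cxcl12 stood at -3.35 in MSC, 1.39 in fibroblasts and 0.84 in tendon cells. Gas6 stood at -2.25 in MSC, 1.98 in fibroblasts and 2.54 in tendon cells. The summed markers of other types also moved within these types in this pair, as given above. Vcam1 stood at -0.66 in MSC and 0.65 in fibroblasts, but among MSC of like score it stood at 0.12, 0.05 and 0.49, on the same side as in fibroblasts.

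In the NHD13 pair the opposite signs were smaller. Cxcl12 stood at -0.068 in MSC, 0.54 in fibroblasts and 0.50 in tendon cells, and Il7 at -0.51 in MSC, 0.68 in fibroblasts and 1.09 in tendon cells. Free RNA of both genes was also higher in NHD13Tg than in WT_A1, at 4497 and 2653 CPM for Cxcl12 and 14.1 and 9.81 CPM for Il7, and its part in these ratios was not tested. Il7 outside MSC was under the 20 CPM of the size rule. It stood at 7.25 and 4.51 CPM in fibroblasts of NHD13Tg and WT_A1 (80 and 62 UMIs). In tendon cells it stood at 9.46 and 4.43 CPM (57 and 34 UMIs).

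Between the pairs, Kitl in MSC stood at 0.17 in the NHD13 pair and -1.56 in the Abcg2 pair, and Vcam1 in tendon cells at -0.32 and 1.73.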

How the results depend on the processing

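Of the tests of members between types, 359 alternatives kept direction and call, 4 lost a call (Gas6 against tendon cells, given above) and 1 gained one. Genes higher in MSC numbered 5097 against osteoblasts and 5086 against chondrocytes without TMM. With 1 library left out they numbered 1746 to 3210 against osteoblasts, 2088 to 2499 against chondrocytes, 1537 to 2992 against fibroblasts and 1535 to 2888 against tendon cells, lowest without NHD13Tg against osteoblasts and without WT_A1 against fibroblasts and tendon cells. The joint test called 31 genes with thresholds doubled, 16 with DESeq2 and 146 without a filter. For the members in that test, 55 alternatives gave the same outcome and 1 a stronger one. Over all types, 298 pair ratios stayed within the counting interval, 121 moved and 5 reversed, all 5 being Vcam1 of MSC in the Abcg2 pair; the cause was not tested. The values in MSC that moved or reversed follow, as log2 ratios with the pair in parentheses. In cells of exactly 1 definition the ratios were Cxcl12 -0.11 (NHD13), and Cxcl12 -3.15, Kitl -1.32, Vcam1 -0.43 and Gas6 -2.50 (Abcg2). With thresholds doubled the ratios were Cxcl12 -0.11, Kitl 0.094 and Csf1 -0.67 (NHD13), and Cxcl12 -2.97, Kitl -1.21, Vcam1 -0.12, Angpt1 -1.93 and Il7 -2.60 (Abcg2). At 4000 or more UMIs the ratios were Cxcl12 -0.085 and Kitl 0.092 (NHD13), and Cxcl12 -3.22, Kitl -1.72, Il7 -5.99 and Gas6 -1.995 (Abcg2). With doublets removed the ratios were Cxcl12 -0.035 (NHD13), and Cxcl12 -3.49 and Gas6 -2.44 (Abcg2). In MSC with an Adipoq UMI (chosen after seeing the data) the ratios were Cxcl12 -0.12, Kitl 0.11 and Vcam1 -0.98 (NHD13), and Cxcl12 -2.96, Kitl -0.94, Vcam1 0.066, Il7 -2.62 and Csf1 -0.85 (Abcg2). With free RNA subtracted by osteocalcin (chosen after seeing the data) the ratios were Cxcl12 -2.38, Kitl -0.55, Vcam1 0.36, Angpt1 -2.02, Csf1 -0.51 and Gas6 -1.89 (Abcg2). Whether that osteocalcin share was free RNA alone was not tested. At scores of 10 to 20 the ratios were Cxcl12 -0.21, Vcam1 -1.03, Angpt1 -0.61, Il7 -0.93, Csf1 -0.18 and Gas6 -0.32 (NHD13), and Cxcl12 -2.34, Kitl -0.46, Vcam1 0.12, Angpt1 -1.94, Csf1 -0.58 and Gas6 -1.10 (Abcg2). At scores of 20 to 40 the ratios were Cxcl12 -0.15, Kitl 0.084, Csf1 -0.64 and Gas6 -0.17 (NHD13), and Cxcl12 -2.53, Kitl -0.70, Vcam1 0.053, Angpt1 -1.61, Il7 -1.91, Csf1 -0.87 and Gas6 -1.61 (Abcg2). At scores of 40 or more the ratios were Cxcl12 -0.13, Kitl 0.052, Vcam1 -1.02, Csf1 -0.72 and Gas6 0.079 (NHD13), and Cxcl12 -2.81, Kitl -1.04, Vcam1 0.49, Angpt1 -0.99, Csf1 -2.07 and Gas6 -3.25 (Abcg2). No paired analysis was possible because each group holds 1 library, other than the library as a block between types and the pair as a block in the joint test. Leaving out a library was not possible within a pair or in the joint test. Depth limits Il7 and Angpt1 most, with 7 and 17 UMIs in MSC of Abcg2-MDS/AML.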
